A study of Mus musculus with 8 samples.

Results

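The genes described here are the 42 proteasome genes picked by symbol from the 31053 genes of the deposited gene list, namely all symbols that start with Psma, Psmb, Psmc, Psmd or Psme followed by a number, letters after it allowed. Pseudogene and opposite-strand symbols were left out, as were the immunoproteasome genes Psmb8, Psmb9 and Psmb10. They comprised 8 alpha ring genes, 8 beta ring genes, 6 ATPases of the 19S base, 3 other base genes, 8 lid genes, 3 assembly chaperones and 5 activator genes. The last match, Psmc3ip, encodes a recombination factor and no proteasome subunit. The working name for the set, constitutive subunits, does not hold for every match, since Psme1 and Psme2 are known interferon-inducible genes and Psma8 and Psmb11 are known for testis and thymus. Psma8 and Psmb11 had 2 and 7 UMIs (unique molecular identifiers, each standing for 1 captured transcript) in all T barcodes together.

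RNA was counted by droplet 3′ single-cell sequencing in 8 libraries of colonic lamina propria, the connective tissue under the gut lining, from C57BL/6 mice aged 10 to 12 weeks and enriched for CD4 cells with a magnetic kit. The 4 groups of 2 libraries were untreated wildtype mice, untreated mutant mice, wildtype mice given dextran sulfate sodium (DSS, a polymer that injures the colon epithelium) and mutant mice given DSS. The mutants carried a serine-to-alanine change in RORgt, the transcription factor of Th17 cells, written S182A in the series title and S203A in the sample titles. This single-residue change leaves no trace in 3′ counts, so the genotype labels were not checked by the targeted gene. DSS was given at 2% in the drinking water for 7 days and followed by plain water for 3 days. Untreated mice stayed on plain water for 10 days, and every mouse was harvested on day 10. The labels name no pooling of animals and no shared litter or day.

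The proteasome is the barrel-shaped protease that degrades ubiquitin-tagged proteins. Alpha rings form its gate and beta rings hold the cutting sites, of which Psmb5, Psmb6 and Psmb7 encode the standard ones. A 19S cap binds ubiquitin chains, strips them in its lid and unfolds the substrate with the ATPases of its base. Alternative caps are PA28 alpha-beta (Psme1, Psme2), PA28 gamma (Psme3) and PA200 (Psme4). In immune cells Psmb8, Psmb9 and Psmb10 replace the standard cutting subunits and change which peptides reach MHC class I. NRF1, encoded by Nfe2l1, is known to raise most subunit genes together through antioxidant response elements when the proteasome falls short.

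Promoters are shown for 4 members whose window held the core of that element, TGACNNNGC, because subunit genes are known to be driven together through it. The windows came from RefSeq promoters (GRCm38.p6, the build called mm10 in the submitters' processing notes), which run from 250 bases before to 50 bases after a start site and were found for 35 of the 42 members. The stretches printed lie before the gene start of both RefSeq and GENCODE vM21, 5′ to 3′ on the gene's strand, with the core in capitals.
Psmb6, chr11:70525313-70525356, plus strand: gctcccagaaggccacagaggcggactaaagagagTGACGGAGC
Psmb5, chr14:54618023-54618077, minus strand: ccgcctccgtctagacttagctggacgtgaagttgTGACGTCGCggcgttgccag
Psmc6, chr14:45329574-45329640, plus strand: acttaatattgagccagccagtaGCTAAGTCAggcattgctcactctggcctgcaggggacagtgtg
Psmd12, chr11:107479278-107479324, plus strand: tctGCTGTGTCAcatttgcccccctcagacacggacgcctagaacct

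In Psmb6 and Psmb5 the core lay on the gene's strand close to the start site, at positions -9 to -1 and -47 to -39. In Psmc6 and Psmd12 it lay on the other strand, so that its reverse complement is in capitals, at -227 to -219 and -247 to -239. The core also occurred in the windows of Psmd9 and Psme4, which gives 6 of 35 member genes (17.1%) against 3781 of all 27025 genes of the table (14.0%), a gene counting once if any of its promoters held the core. Over single promoters the share was 12.4% of 32851. CCAAT, searched on both strands as well, occurred in 14 of 35 member genes (40.0%) against 41.1% of all genes and 37.4% of all promoters. These matches describe letters and no factor binding was measured.

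Of 100673 deposited barcodes, 96721 had at least 400 genes and under 20% mitochondrial UMIs, and 1176 barcode sequences occurred in more than 1 library. Clustering without any Psm gene gave 25 clusters, of which 8 formed the T barcodes and the others the non-T barcodes. The authors' cell list, used as an alternative below, held 27420 barcodes. Among them were 1776 to 3758 T and 615 to 982 non-T barcodes a library. It kept 4.06% of the barcodes of the B-like and 6.65% of those of the plasma-like cluster. T barcodes had 13876402 to 23087389 UMIs per library against 12765592 to 31860280 in non-T barcodes, and their share was 65.0% to 76.7% in DSS-treated and 47.4% to 57.0% in untreated libraries. The T cell marker list summed to 3772 to 4227 CPM in untreated and 3009.6 to 3577 CPM in DSS-treated T barcodes, against 358 to 488 CPM and 366 to 600.4 CPM in non-T barcodes. CPM here scales a gene's UMIs by all UMIs of the class in that library. The tests used TMM scaling, which aligns the bulk of the genes and not the totals. In T barcodes the median gene stood 0.099 higher on the log2 scale after DSS when scaled by totals and 0.013 higher with TMM. Values in CPM therefore lie slightly higher for DSS-treated T barcodes than the fold changes imply.

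Some members stood higher in T than in non-T barcodes of the same library and others lower. Of the 39 members with a mean of at least 5 CPM in either class, 12 were higher in T barcodes in all 8 libraries, against 36.5% of 10772 genes, and 8 were lower in all 8, against 40.1% of genes. The median difference of the members was -0.0054 on the log2 scale, and that of all genes -0.03. No test was run on this description.

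Among the subunits higher in T barcodes of all 8 libraries were Psma1, Psma2, Psma3, Psmb1, Psmc2, Psmc6, Psmd4 and Psmd14. Psmb1, a structural beta subunit, stood at 273 ± 20.1 CPM in T and 197 ± 15.7 CPM in non-T barcodes (SD, n = 8 libraries of all groups), a log2 difference of 0.47 ± 0.10. Psmd14, the lid enzyme that cuts ubiquitin chains off substrates, stood at 65.1 ± 5.78 CPM in T and 49.3 ± 2.64 CPM in non-T barcodes. The chaperone Psmd9, which helps to assemble the base, showed the widest gap of the members, with 51.7 ± 4.75 CPM in T and 33.7 ± 2.29 CPM in non-T barcodes. All 3 activators Psme1, Psme2 and Psme3 were higher in T barcodes of 8 libraries, Psme3 at 41.8 ± 5.79 CPM in T and 31.5 ± 6.18 CPM in non-T barcodes.

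The members lower in T barcodes of all 8 libraries were Psmb4, Psmb6, Psmc1, Psmd1, Psmd2, Psmd3, Psmd7 and Psme4. Psmb6, the caspase-like cutting subunit, had 108 ± 13.4 CPM in T and 137 ± 15.1 CPM in non-T barcodes. Its partners Psmb5 (chymotrypsin-like) and Psmb7 (trypsin-like) had 104 ± 11.5 CPM in T and 118 ± 11.5 CPM in non-T barcodes and 73.8 ± 4.58 CPM in T and 74.1 ± 4.64 CPM in non-T barcodes, with T higher in 1 and 5 of 8 libraries. Psmd1 and Psmd2, the large scaffold proteins of the base, were at 75.8% and 90.7% of their non-T level in T barcodes. With T barcodes taken by UMIs of T cell genes, the counts of 12 and 8 became 17 and 5, and on the authors' cell list 15 and 4. The shares of all genes were not computed for these definitions. Median log2 differences were 0.09 and 0.11 for members and 0.02 and 0.03 for all genes. By UMIs of T cell genes Psmd2 stood at 100.7% of its non-T level, with T higher in 4 of 8 libraries. On the authors' cell list Psmd2 stayed lower in all 8. Psmc1 was higher in T barcodes of 1 library under both definitions, and Psmd3 in 3 and 2 libraries. On the authors' cell list Psmb4 and Psmd7 were each higher in T barcodes of 1 library. By UMIs of T cell genes Psmb5 had 111 CPM in T and 112 CPM in non-T barcodes. On the authors' cell list Psmb5 had 112 and 108 CPM, and T was higher in 4 of 8 libraries under both definitions.

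**Figure D1:**
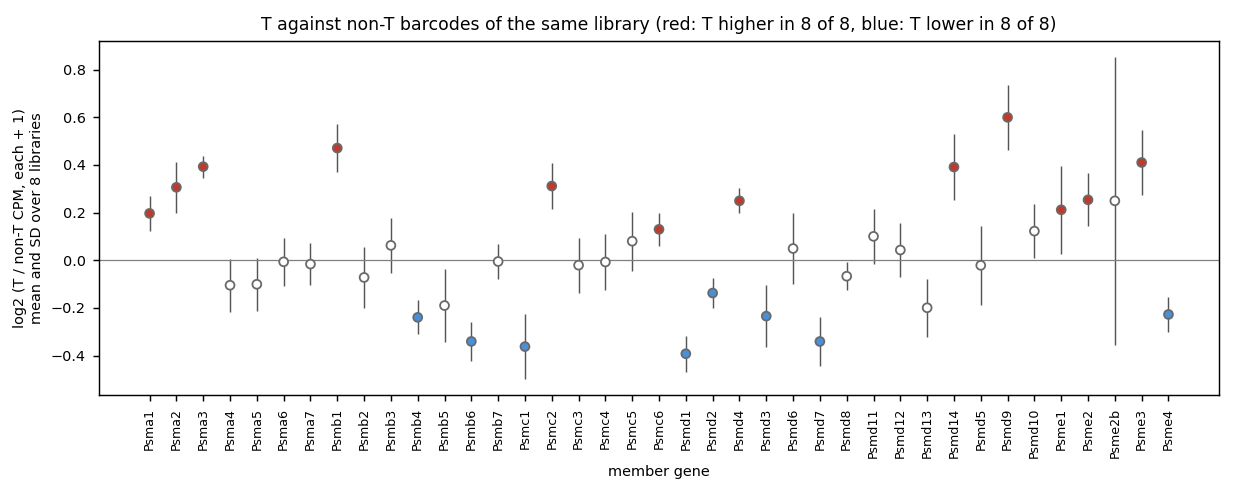
Mean log2 ratio of CPM in T to non-T barcodes of the same library for 39 member genes, with 1 added to each CPM, and bars for the SD over 8 libraries. Red points (12) were higher in T barcodes in all 8 libraries and blue points (8) lower in all 8, and Psme2b has the longest bar.

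After DSS, genes of the 19S cap and, less stably, of the core particle were called lower in T barcodes, while the activator genes Psme3 and Psme2b were called higher. With both genotypes averaged, 17 of the 40 members tested passed an adjusted p of 0.05 in edgeR's quasi-likelihood test, 15 lower and 2 higher, and 30 had an unadjusted p under 0.05. Over all 12655 genes, 23.3% passed, 11.1% lower and 12.1% higher. Counts at an unadjusted p, here and below, have no share of all genes beside them and are not read as an excess of members. The member median was -0.24 and the median of all genes 0.013 on the log2 scale. Scaled by total UMIs, 9 members were lower and 7 higher, with a member median of -0.16 against 0.099 for all genes, and each of those 9 was among the 15. With that scaling 7.04% of all genes were lower and 19% higher. By CPM, 15 of the 40 had all 4 DSS-treated libraries below all 4 untreated ones, against 8.77% of genes, and 7 had them all above, against 21.2%. DESeq2 called 18 lower, among them all 15, and Psme2b higher but not Psme3, with 12.1% of the genes it was given called. It was given every gene with any UMI, without the filter on low counts. Its share is thus over more genes than edgeR's 23.3%, and the 2 shares are not alike.

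In the 19S base, 4 of 6 ATPases fell, and none rose with TMM scaling, whereas Psmc1 was called higher with total scaling. Psmc2 stood at 70.3 and 76.8 CPM in the untreated wildtype, 71.8 and 71.3 in the untreated mutant, 63.5 and 47.5 in the DSS-treated wildtype and 55.2 and 50.7 in the DSS-treated mutant libraries. Psmc5 stood at 73.9, 87.6, 84.1 and 82.4 CPM in the 4 untreated libraries and 72.9, 59.1, 64.2 and 55.7 CPM in the 4 DSS-treated ones. For both ATPases each DSS-treated library lay below each untreated one. The fold changes were -0.50 for Psmc2 (SE 0.10, adjusted p = 0.0135 in edgeR) and -0.47 for Psmc5 (SE 0.10, adjusted p = 0.0154 in edgeR), on the log2 scale.

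Psmc4, the next ATPase of the ring, had 62.3, 66.6, 66.5 and 61.3 CPM in the 4 untreated libraries and 59.02, 47.8, 49.9 and 49.5 CPM in the 4 DSS-treated ones. In the same order Psmc6 had 90.03, 94.2, 95.6 and 96.4 CPM in the 4 untreated libraries and 82.8, 77.00, 78.1 and 83.4 CPM in the 4 DSS-treated ones. Neither showed any overlap between treated and untreated libraries, and the log2 changes were -0.40 and -0.31 (edgeR adjusted p = 0.0159 and 0.0167). The remaining ATPases were not called: Psmc3 had -0.12 and Psmc1 0.20, and Psmc1 was the ATPase with all 4 DSS-treated libraries above the untreated ones in CPM.

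Among the other base genes, Psmd4, a receptor for ubiquitin chains, read 141 and 159 CPM in the untreated wildtype, 144 and 141 in the untreated mutant, 129 and 126 in the DSS-treated wildtype and 119 and 122 in the DSS-treated mutant libraries. The 4 DSS-treated libraries were the 4 lowest, with a log2 change of -0.33 (SE 0.07, edgeR adjusted p = 0.0146). The scaffold genes did not pass, with -0.16 for Psmd1 and 0.15 for Psmd2. Psmd2 was called higher with total scaling.

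The lid had 5 of 8 genes lower, Psmd6, Psmd7, Psmd8, Psmd12 and Psmd14, and a median of -0.28. Psmd6, a structural lid subunit with the lowest adjusted p of all members, read 66.4 and 73.4 CPM in the untreated wildtype, 64.8 and 64.2 in the untreated mutant, 55.6 and 52.3 in the DSS-treated wildtype and 55.4 and 56.8 in the DSS-treated mutant libraries. For Psmd12, another structural subunit, the values were 76.7, 90.9, 85.5 and 92.8 CPM in the 4 untreated libraries and 74.2, 54.4, 65.04 and 58.8 CPM in the 4 DSS-treated ones. Psmd7, the inactive partner of the deubiquitinase Psmd14, read 86.8, 108, 93.97 and 104 CPM in the 4 untreated libraries and 86.3, 72.4, 78.04 and 72.3 CPM in the 4 DSS-treated ones. In all 3 the treated libraries lay below the untreated, with the narrowest gap in Psmd7, between replicate 1 of either wildtype group.

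The log2 changes of these lid genes by edgeR were -0.37 for Psmd6 (adjusted p = 0.011), -0.54 for Psmd12 (adjusted p = 0.0157) and -0.43 for Psmd7 (adjusted p = 0.0206). Psmd14 and Psmd8 followed with -0.29 and -0.27, and they were not called with total scaling. Psmd3, Psmd11 and Psmd13 were not called, at 0.15, -0.16 and 0.14. With total scaling Psmd3 and Psmd13 were called higher.

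In the core particle 2 of 7 tested beta genes fell, Psmb2 and Psmb6, and 2 of 7 alpha genes, Psma4 and Psma7, all of them with TMM and none with total scaling. No alpha or beta gene was called on the authors' cell list or with T barcodes taken by UMIs of T cell genes. Of the 3 standard cutting subunits, Psmb6 (chr11:70525367-70527858) read 113 and 129 CPM in the untreated wildtype, 119 and 113 in the untreated mutant, 111 and 93.7 in the DSS-treated wildtype and 101 and 88.4 in the DSS-treated mutant libraries. Psmb5 (chr14:54614119-54618022) read 106 and 117 CPM in the untreated wildtype, 115 and 102 in the untreated mutant, 114 and 86.9 in the DSS-treated wildtype and 101 and 88.4 in the DSS-treated mutant libraries. Psmb7 (chr2:38588036-38644087) read 74.00 and 69.5 CPM in the untreated wildtype, 69.7 and 73.3 in the untreated mutant, 80.3 and 73.7 in the DSS-treated wildtype and 80.8 and 69.3 in the DSS-treated mutant libraries. The 3 did not move alike: Psmb6 was lower in each DSS-treated library, Psmb5 overlapped because DSS-treated wildtype replicate 1 stayed among the untreated values, and Psmb7 had replicate 1 of both DSS groups above every untreated library and the other DSS-treated libraries inside or just below their range.

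Psmb6 passed with log2 fold change -0.35 (SE 0.09), adjusted p = 0.0269 by edgeR, Psmb5 did not with log2 fold change -0.26 (SE 0.11), adjusted p = 0.107, and Psmb7 had a log2 change of -0.0004 with an SE of 0.08. Psmb2 and the structural alpha genes Psma4 and Psma7 were called at -0.39, -0.34 and -0.30. The alpha genes tested ranged from -0.34 to -0.14, with a median of -0.25, and the beta genes had a median of -0.23. The chaperones that build the base were not called, with 0.19 for Psmd5, -0.21 for Psmd9 and -0.31 for Psmd10.

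The activators split. Psme1, the alpha subunit of PA28, read 275 and 314 CPM in the untreated wildtype, 319.5 and 271 in the untreated mutant, 247 and 232 in the DSS-treated wildtype and 251 and 247 in the DSS-treated mutant libraries. Psme2, its beta subunit, read 163 and 171 CPM in the untreated wildtype, 174 and 153 in the untreated mutant, 159.5 and 135 in the DSS-treated wildtype and 163 and 117 in the DSS-treated mutant libraries. Treated and untreated libraries were apart for Psme1 and overlapped for Psme2, and Psme1 passed with log2 fold change -0.36 (SE 0.08), adjusted p = 0.0181 by edgeR, whereas Psme2 had log2 fold change -0.29 (SE 0.12), adjusted p = 0.104. Psme3, the nuclear PA28 gamma, went from 36.8 ± 1.88 CPM to 46.9 ± 2.40 CPM (SD, n = 4 libraries of both genotypes), and passed with log2 fold change 0.26 (SE 0.07), adjusted p = 0.031 by edgeR. Psme4 read 43.3 ± 3.13 CPM and 53.2 ± 2.61 CPM and did not pass with TMM scaling (edgeR adjusted p = 0.0577).

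Psme2b (chr11:48945354-48946190) gave the highest fold change of the members. Its T barcode values were 8.34 and 8.89 CPM in the untreated wildtype, 6.56 and 7.52 in the untreated mutant, 14.3 and 11.05 in the DSS-treated wildtype and 17.7 and 11.8 in the DSS-treated mutant libraries, all treated libraries above all untreated ones, with log2 fold change 0.73 (SE 0.16), adjusted p = 0.0166 by edgeR. It is a near-copy of Psme2, and how reads were divided between both genes is not given in the sources used here, so its level and that of Psme2 are uncertain.

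**Figure D2:**
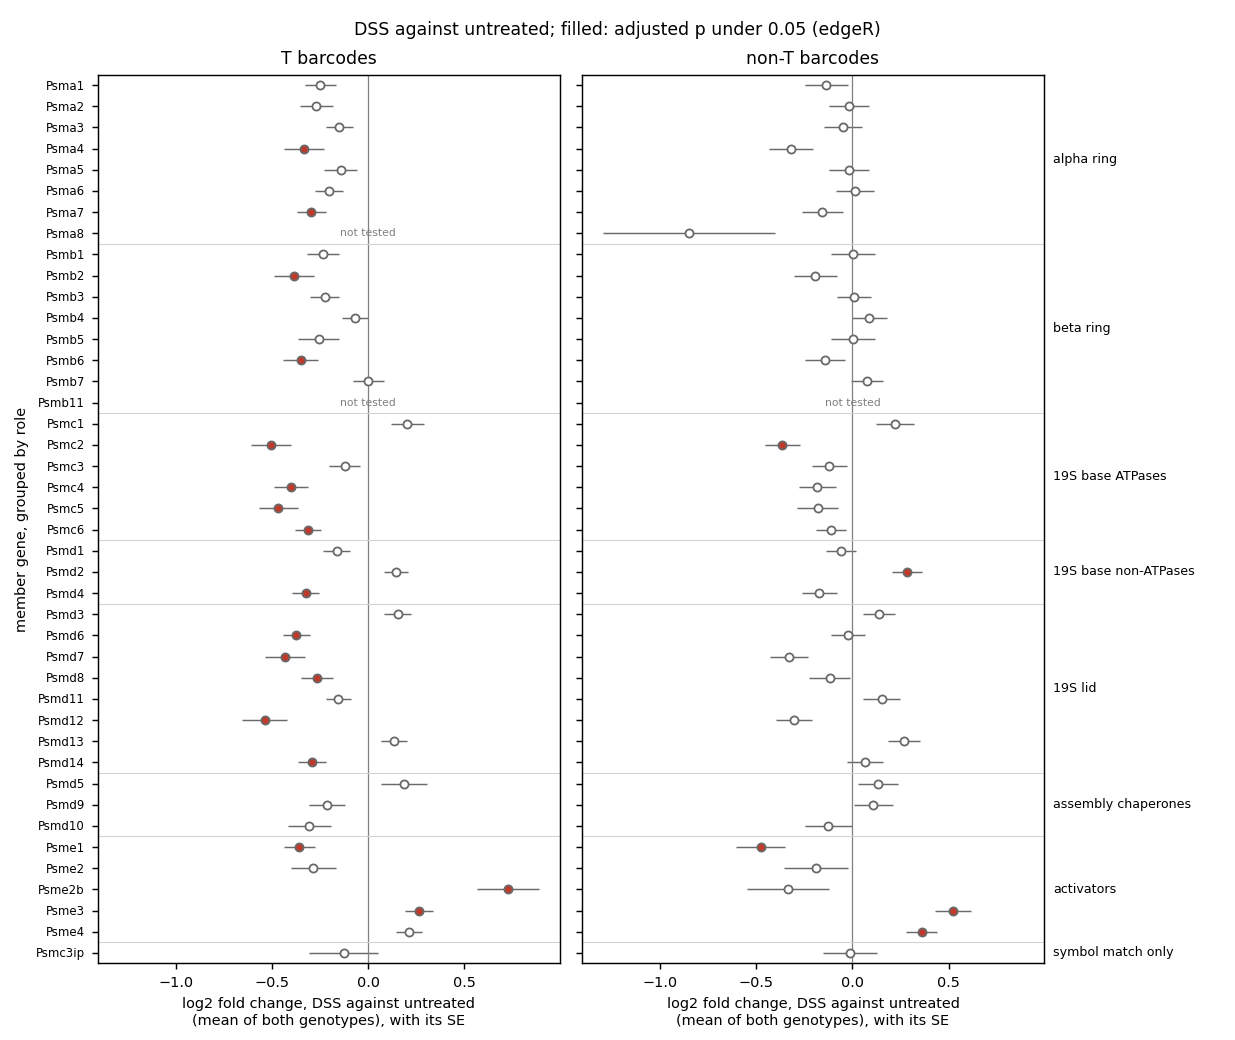
Log2 fold change of each member, DSS-treated against untreated with both genotypes averaged, with its SE, in T barcodes (left) and non-T barcodes (right); filled points passed an adjusted p of 0.05 in edgeR. In T barcodes 17 points are filled, 15 of them left of 0, and in non-T barcodes 5, of which 3 lie right of 0.

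**Figure D3:**
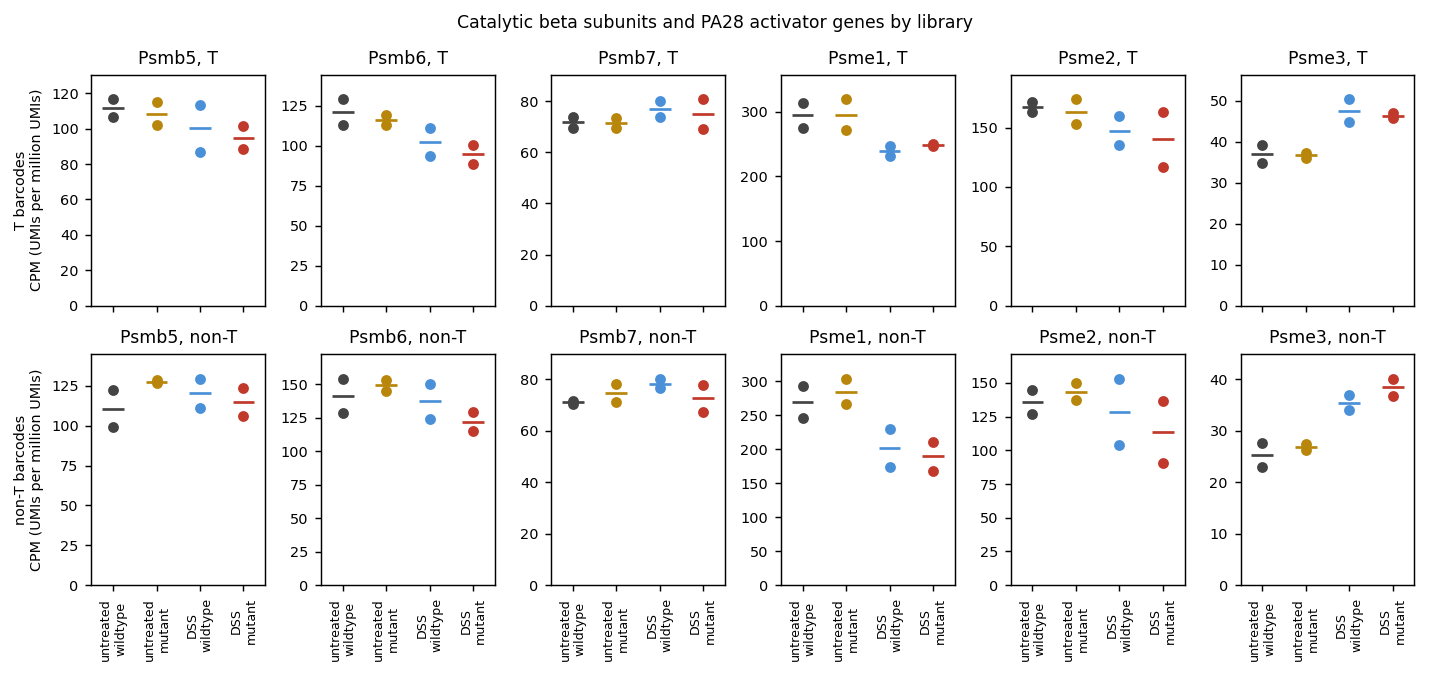
CPM of the standard cutting subunits Psmb5, Psmb6 and Psmb7 and of Psme1, Psme2 and Psme3 in each library, T barcodes above and non-T barcodes below; points are libraries and bars are means of 2. Psme1 lies lower and Psme3 higher in all 4 DSS-treated libraries of both rows, and Psmb7 overlaps.

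These calls depended on single libraries. Each count is given with the share of all genes called in the same fit, which was 23.3% with all 8 libraries. Without untreated wildtype replicate 2, 0 of 40 members passed in T barcodes (3.30% of genes), 21 had an unadjusted p under 0.05 and the member median was -0.21. Omitting replicate 2 of the untreated mutants left 3 calls (7.68%), omitting their replicate 1 left 4 (9.42%), and omitting replicate 2 of the DSS group left 5 in wildtype (8.39%) and 10 in mutant mice (15.5%). Any of the other libraries could be omitted with 13 to 23 calls (15.7% to 22.02% of genes), with a member median below 0 each time. On the authors' cell list, a smaller set of barcodes, 9 members were called, all lower and all among the 15, against 18.5% of genes. With T barcodes taken by UMIs of T cell genes 5 were called, Psmc2, Psmd7 and Psme1 lower and Psme3 and Psme4 higher, against 19.8% of genes. Without the cycling-like cluster, a choice made after seeing the data, 22 were called, all 15 and Psma1, Psma2, Psma6, Psmb3 and Psmd1 lower and Psme2b and Psme3 higher, against 23.8% of genes.

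Of the 3 immunoproteasome genes, which are no members, 2 were called lower in T barcodes. Psmb8 read 289.8, 327, 333 and 280.3 CPM in the 4 untreated libraries and 254, 209, 215 and 199.8 CPM in the 4 DSS-treated ones, with log2 fold change -0.57 (SE 0.10), adjusted p = 0.00852 by edgeR. Psmb10 read 66.1, 58.9, 79.6 and 57.4 CPM in the 4 untreated libraries and 51.9, 45.5, 47.4 and 38.9 CPM in the 4 DSS-treated ones, with log2 fold change -0.60 (SE 0.12), adjusted p = 0.012 by edgeR. For both genes no treated library reached an untreated one, while Psmb9 had a log2 change of -0.03 and overlapped. The sum of the 3 genes was 410.4 to 501 CPM in untreated and 307 to 401 CPM in DSS-treated T barcodes.

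Of 12 assembly factors and 19S partners only Usp14, a deubiquitinase of the cap besides Psmd14, was called, at -0.42 (edgeR adjusted p = 0.0106). With total scaling AI314180 and Sem1 were called higher beside it, at 0.21 and 0.23 with TMM, where neither passed (edgeR adjusted p = 0.0601 and 0.0952). Among 4 regulators Ddi2, the protease known to activate NRF1, rose by 0.30 (adjusted p = 0.0268), while Nfe2l1 itself had -0.04 (SE 0.07). Of 12 ubiquitin and shuttle genes 3 fell and 5 rose. The polyubiquitin gene Ubb fell by 1.16 on the log2 scale (adjusted p = 0.0101), and Ubqln4 and Uba1, a shuttle and the ubiquitin-activating enzyme, rose by 0.57 and 0.32 (adjusted p = 0.0145 and 0.0149, all by edgeR). With total scaling Ubb, Usp14, Psmb8 and Psmb10 stayed called lower and Ddi2, Ubqln4 and Uba1 higher.

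Other measures moved with the treatment. The heat-shock list of 9 genes summed to 4837 and 8022 CPM in the untreated wildtype, 15639 and 15073 in the untreated mutant, 7226 and 5706 in the DSS-treated wildtype and 5993 and 6604 in the DSS-treated mutant libraries, and 4 of the 9 genes were called lower after DSS. It was highest in both untreated mutant libraries, while wildtype libraries overlapped between treatments. The 10 genes of the cycling list summed to 639 to 890.1 CPM in untreated and 812 to 1023 CPM in DSS-treated T barcodes, which overlapped, with Pcna, Cdk1 and Rrm2 called higher and Stmn1 lower. Markers of macrophages summed to 76.98 to 189 CPM in untreated and 100.4 to 324 CPM in DSS-treated T barcodes, with 6 of 9 higher after DSS, and those of fibroblasts to 14.2 to 26.3 CPM and 11.5 to 54.4 CPM, with 6 of 7 higher. Epithelial markers went the other way, with 5 of 7 lower and 2 higher and sums of 12.01 to 25.8 CPM and 10.7 to 13.6 CPM, and B markers were mixed, with 3 of 5 higher. Neutrophil markers were higher in 6 of 6, at 9.88 to 12.6 CPM against 15 to 26.99 CPM, with Cxcr2, S100a8, S100a9, Csf3r and Retnlg at 0 in at least 1 library. The part of these measures, and of free RNA in droplets, in the member changes was not tested.

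**Figure D4:**
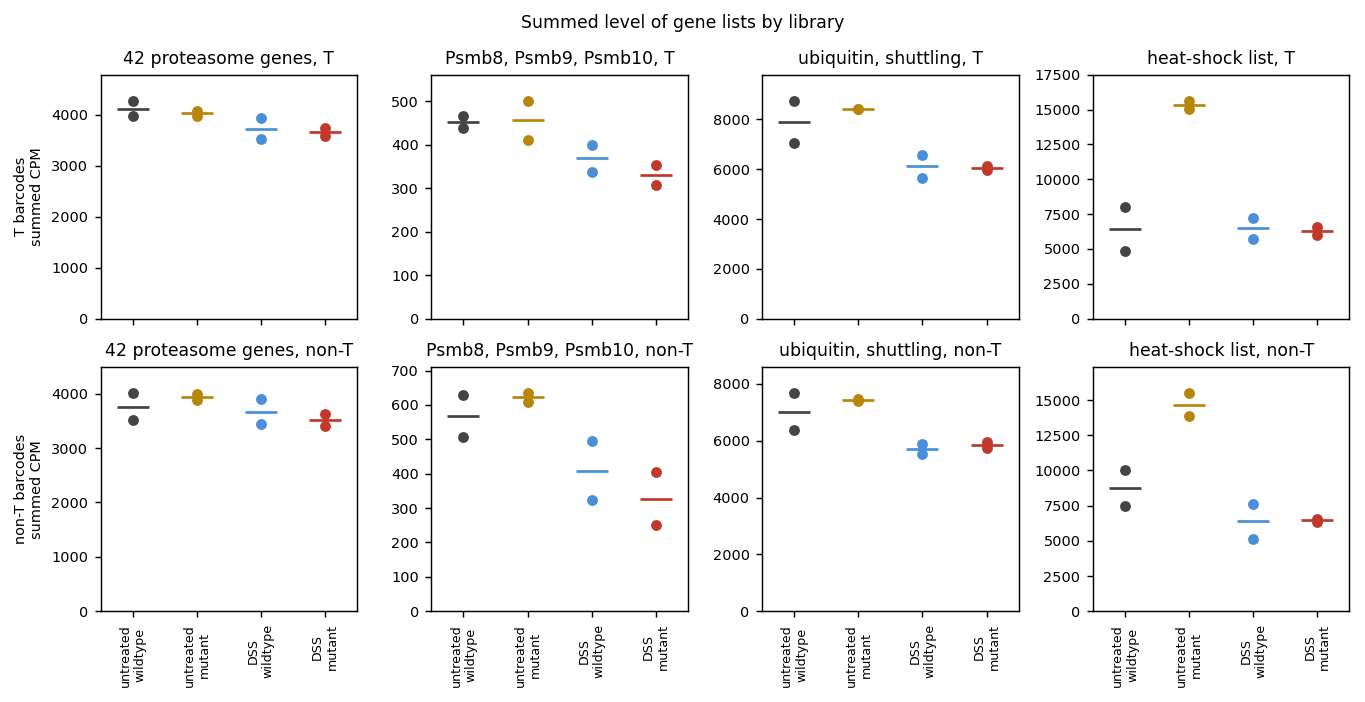
Summed CPM per library of the 42 proteasome genes, the 3 immunoproteasome genes, the 12 ubiquitin and shuttle genes and the 9 heat-shock genes, in T barcodes (top) and non-T barcodes (bottom); bars are means of 2 libraries. In T barcodes the member sums of DSS-treated libraries (3525 to 3936) lie below those of untreated ones (3973 to 4281), and the heat-shock list stands highest in the untreated mutant libraries.

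Taken by genotype, T barcodes gave few calls. In wildtype mice 0 of 40 members passed in edgeR, 16 had an unadjusted p under 0.05 and DESeq2 called 1. By edgeR 0.103% of all genes were called, and the member median was -0.23. The lowest p belonged to Psmd6 (log2 fold change -0.45 (SE 0.10), adjusted p = 0.0863 by edgeR), Psmc2 (-0.48) and Psme1 (-0.37). In mutant mice 2 members passed, against 8.46% of genes, and the member median was -0.28. Psme2b was higher there with log2 fold change 0.97 (SE 0.23), adjusted p = 0.0414 and Psmc5 lower with log2 fold change -0.57 (SE 0.14), adjusted p = 0.0455, both by edgeR. DESeq2 called 6 members in the mutant, and the share of all genes it called there is not given here. With total scaling 3 were called higher (8.15% of genes) and 0 lower (2.74%) there. Neither call survived without any 1 of the mutant libraries or of the untreated wildtype libraries, where 0 members passed (0% to 5.24% of genes), and 5 passed without either DSS-treated wildtype library (7.57% and 7.97%).

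The difference between the genotypes' DSS responses was tested directly and called 0 of 40 members in T barcodes, with 0 at an unadjusted p under 0.05, 0 by DESeq2 and 0% of genes called. The lowest p had Psmd2, with a difference of 0.24 (SE 0.13), Psme2b with 0.48 (SE 0.32) and Psmd13 with 0.20 (SE 0.13). With 2 libraries a group, a p that misses the threshold does not show that the genotypes responded alike.

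Mutant against wildtype gave 0 member calls in edgeR and in DESeq2 in untreated T barcodes (0% of genes called, 1 member at an unadjusted p under 0.05) and after DSS (0% of genes, 0 members). Untreated, the lowest p was that of Psmd13, a lid gene with 63.6 and 58.5 CPM in the untreated wildtype, 50.5 and 47.9 in the untreated mutant, 63.8 and 68.3 in the DSS-treated wildtype and 59.8 and 64.1 in the DSS-treated mutant libraries, where both untreated mutant libraries were the lowest and the log2 change was -0.31 (SE 0.10, edgeR adjusted p = 0.798). Psmb4 and Psme2b followed at -0.13 and -0.29. After DSS the 3 lowest were Psmd2 (0.14), Psmd10 (-0.24) and Psmc3ip (-0.32).

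In non-T barcodes, a mixture of B, plasma, myeloid and stromal cells, members were called no more often than genes at large. The activators Psme3 and Psme4 were called higher, and no alpha or beta ring gene was called. With both genotypes averaged, 5 of 41 members tested passed in edgeR, 3 higher and 2 lower, against 19.1% of 15742 genes (10.4% higher, 8.67% lower). The member median was -0.05 and that of all genes -0.00051. By CPM, 6 members had all treated libraries below the untreated ones, against 13.4% of genes, and 4 had them above, against 13.5%. With total scaling 3 were lower (7.79% of genes) and 2 higher (8.22%).

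Psme3 read 27.6 and 23.02 CPM in the untreated wildtype, 27.5 and 26.2 in the untreated mutant, 36.9 and 33.99 in the DSS-treated wildtype and 36.8 and 40.03 in the DSS-treated mutant libraries. Psme4, the PA200 cap, read 51.5 and 50.6 CPM in the untreated wildtype, 49.7 and 48.5 in the untreated mutant, 63.7 and 59.7 in the DSS-treated wildtype and 61.8 and 68.1 in the DSS-treated mutant libraries. Both activators were higher in every DSS-treated library, by 0.52 (SE 0.09, adjusted p = 0.0125) and 0.36 (SE 0.08, adjusted p = 0.0241) in edgeR. Neither was called on the authors' cell list, and they were called in 10 of the 13 and 7 of the 13 alternatives run. Psmd2 read 75.01, 78.5, 76.99 and 67.01 CPM in the 4 untreated libraries and 87.2, 86.3, 87.2 and 95.4 CPM in the 4 DSS-treated ones and also lay higher in each treated library, with log2 fold change 0.28 (SE 0.08), adjusted p = 0.0448 by edgeR, a call lost in every alternative run except DESeq2.

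The members called lower were Psme1 and Psmc2, of which Psmc2 was not called on the authors' cell list and Psme1 not with barcodes divided by UMIs of T cell genes, where Psmd7 and Psmd12 were. Psme1 read 245 and 292 CPM in the untreated wildtype, 303 and 266 in the untreated mutant, 229.8 and 174 in the DSS-treated wildtype and 211 and 168 in the DSS-treated mutant libraries, and Psmc2 50.5, 58.4, 60.9 and 60.3 CPM in the 4 untreated libraries and 49.04, 41.9, 43.01 and 42.1 CPM in the 4 DSS-treated ones. No treated library reached an untreated one in either gene, and the log2 changes were -0.48 (SE 0.13) and -0.36 (SE 0.09), with edgeR adjusted p = 0.0404 and 0.0347.

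The standard cutting subunits overlapped between treatments in non-T barcodes. Psmb5 read 98.99 and 122 CPM in the untreated wildtype, 126 and 129 in the untreated mutant, 129 and 111 in the DSS-treated wildtype and 124 and 106 in the DSS-treated mutant libraries. Psmb6 read 128, 154, 153 and 145 CPM in the 4 untreated libraries and 150.3, 124, 129 and 115 CPM in the 4 DSS-treated ones, and Psmb7 71.6, 70.6, 78.03 and 70.98 CPM in the 4 untreated libraries and 80.1, 76.6, 77.95 and 67.1 CPM in the 4 DSS-treated ones. Their log2 changes were 0.0034, -0.14 and 0.07, each within 2 SEs, and Psme2 had -0.19 (SE 0.17) with 127, 145, 149.9 and 137 CPM in the 4 untreated libraries and 153, 104, 137 and 90.5 CPM in the 4 DSS-treated ones.

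Psmb8 (-0.79) and Psmb10 (-0.59) were called lower in non-T barcodes too, Psmb10 not with total scaling, by edgeR at adjusted p = 0.0348 and 0.0482. Psmb9 had -0.43 and was not called, and neither was Nfe2l1, at 0.09. Of the partners Sem1, a small lid protein, rose by 0.45, and of the regulators Nfe2l2, the NRF2 factor of the antioxidant response, rose by 0.54 (adjusted p = 0.0275 and 0.0178 by edgeR). Of 12 ubiquitin and shuttle genes 4 rose and Ubb fell by 1.07 on the log2 scale. The heat-shock list had 8 of 9 genes called lower, with sums of 7460.3 to 15481 CPM in untreated and 5114 to 7635 CPM in DSS-treated libraries. The neutrophil list went from 23.2 to 45.7 CPM to 556 to 1211 CPM and the macrophage list went from 2984 to 4901 CPM to 2115 to 3382 CPM. Of the cycling list 5 of 10 genes were called higher, and its sums were 516 to 545 CPM in untreated and 559.5 to 689.98 CPM in DSS-treated libraries, with no overlap. The part of these measures and of cell makeup in the non-T values was not tested.

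By genotype, 0 of 41 members passed in non-T barcodes of wildtype mice, with 2 at an unadjusted p under 0.05 and 0 by DESeq2 (1.88% of genes called by edgeR). In mutant mice 0 passed, with 9 at an unadjusted p under 0.05 and 1 by DESeq2, Psme3 (3.81% of genes called by edgeR). The lowest p were those of Psme3, at 0.50 in wildtype and 0.54 in mutant mice, and Psme4, at 0.29 and 0.43. The difference of both responses and mutant against wildtype, untreated and after DSS, gave 0 member calls, 0 members at an unadjusted p under 0.05, 0 by DESeq2 and 0% of genes called. Without untreated wildtype replicate 2, or without DSS-treated mutant replicate 2, 0 members passed in the average over genotypes, and 1 to 3 without any other library except DSS-treated wildtype replicate 1, where 4 passed, while 2.95% to 14.6% of genes were called over the 8 omissions.

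The DSS response of T barcodes was compared with that of non-T barcodes of the same libraries in a model with the library as a block. Of 40 members, 4 differed, against 6.12% of 15398 genes. Psmd14, Psmd6 and Psmd11, all of the lid, changed by -0.34, -0.33 and -0.29 relative to non-T barcodes on the log2 scale (SE 0.07, 0.08 and 0.07, edgeR adjusted p = 0.0244, 0.0335 and 0.0428). Psmd14 itself read 70.6, 71.3, 66.9 and 70.02 CPM in the 4 untreated libraries and 66.3, 59.1, 59.5 and 56.9 CPM in the 4 DSS-treated ones in T barcodes, and 46.02, 50.1, 47.3 and 50.5 CPM in the 4 untreated libraries and 54.6, 48.1, 49.7 and 47.8 CPM in the 4 DSS-treated ones in non-T barcodes. Its libraries were apart in the first and overlapped in the second.

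Psme2b differed by 1.09 (SE 0.15, edgeR adjusted p = 0.00338), rising in T barcodes and reading 10.1, 9.55, 11.05 and 8.34 CPM in the 4 untreated libraries and 8.46, 5.85, 10.6 and 5.66 CPM in the 4 DSS-treated ones in non-T barcodes. On the authors' cell list 0 members differed, with Psmd14 and Psmd6 at edgeR adjusted p = 0.327 and 0.385, and the share of all genes called in that fit is not given here. Of 10 alternatives, Psme2b was called in 9, Psmd14 in 3, Psmd6 in 2 and Psmd11 in 0. The count was 1 without DSS-treated wildtype replicate 2, either DSS-treated mutant library, untreated mutant replicate 1 or untreated wildtype replicate 2, 2 when untreated wildtype replicate 1 was omitted, 3 for replicate 2 of the untreated mutants and 4 for replicate 1 of the DSS-treated wildtype, with 2.11% to 6.15% of genes called over the 8.

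Because the makeup of T and non-T barcodes differed between libraries, each named class of clusters with at least 50 barcodes in every library was also tested on its own. The unnamed T clusters 2 and 4, with 8909 and 8040 barcodes, entered no such test. Classes carry the name of their leading markers with the ending -like. In the Th1-like cluster the mean log2 ratio to the other T clusters' median was 2.70 for Th1 and 2.22 for CD8 markers. Its top genes included Ifng and Tbx21 as well as Gzmk, Gzma and Nkg7, and CD4 and CD8 cells were not told apart in it. Summed over the 42 members, untreated levels ran from 2541 ± 52.7 CPM (SD, n = 4 libraries of both genotypes) in plasma-like barcodes and 3054 ± 119 CPM in naive-like T barcodes to 5577 ± 290.1 CPM in dendritic-like and 5720.1 ± 399 CPM in cycling-like T barcodes. Treg-like barcodes had 4445 ± 188 CPM and smooth muscle-like ones 4706 ± 397 CPM. Between them and the macrophage-like class, at 3585 ± 242 CPM, the Th1-like, Th17-like, B-like, NK or ILC-like, endothelial-like and fibroblast-like classes lay so close that neighbours did not differ beyond their SDs. CPM is a share of a class's UMIs, so this order is not one of member RNA per cell. The median UMIs per barcode were 8088 in the plasma-like and 1901.5 in the naive-like cluster, over all libraries.

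Members called lower after DSS were counted in 5 named classes of T barcodes, and no test compared the classes. Th1-like barcodes had 18 of 39 members lower (8.63% of genes), naive-like 19 of 39 (9.26%), Th17-like 14 of 39 (6.43%), Treg-like 13 of 40 (9.78%) and cycling-like 4 of 40 (7.7%), by edgeR. Member medians were -0.30, -0.38, -0.33, -0.24 and -0.12 in that order, against all-gene medians of 0.006 to 0.015. With total scaling the lower counts were 14 (5.99% of genes), 7 (4.06%), 8 (4.63%), 8 (7.3%) and 2 (6.06%). Members called higher numbered 2 in Th1-like (8.28% of genes), 0 in naive-like (7.14%), 1 in Th17-like (6.51%), 0 in Treg-like (9.04%) and 1 in cycling-like barcodes (5.99%). With total scaling these counts were 2 (11.2%), 2 (16.2%), 1 (8.65%), 1 (12.3%) and 1 (7.3%) in that order, while the median gene of naive-like barcodes stood 0.17 higher. Summed member levels went from 3835 ± 128 CPM to 3261 ± 115 CPM in Th1-like and from 3986 ± 132 CPM to 3398 ± 204 CPM in Th17-like barcodes (SD, n = 4), with no overlap of libraries in either class. Naive-like sums were apart as well, at 2950 to 3225 CPM untreated and 2532 to 2925 CPM after DSS. Treatments overlapped in Treg-like barcodes, at 4212.5 to 4670 CPM untreated and 3740 to 4214 CPM after DSS. Cycling-like barcodes overlapped too, at 5310.5 to 6249 CPM and 5230 to 5700 CPM.

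B-like barcodes had 19 of 39 members lower (8.33% of genes lower) and 0 higher, with a member median of -0.43. The share of genes called higher there is not given here, so that 0 is not set against other genes. The lowest adjusted p there belonged to the lid gene Psmd8 (-0.88, adjusted p = 0.0002), Psma2 (-0.61, adjusted p = 0.00189) and Psmc6 (-0.72, adjusted p = 0.00212), all by edgeR, and Psmd8 also had the largest fall of the members. The summed member level of B-like barcodes was 3748 to 4196 CPM in untreated and 3015 to 3313 CPM in DSS-treated libraries. Plasma-like barcodes had 13 of 39 lower (3.81% of genes) and sums of 2541 ± 52.7 CPM and 2078 ± 128 CPM, apart in all libraries. With total scaling 12 members were lower in each of these 2 classes (4.4% of genes in B-like and 3.53% in plasma-like barcodes).

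Myeloid classes were mixed. Macrophage-like barcodes had 11 of 40 members lower and Psme3 higher (12.5% of genes lower, 12.2% higher), which became 7 lower and 4 higher with total scaling (7.19% and 22.6% of genes), where the median gene stood 0.16 higher. Dendritic-like barcodes had 4 of 39 lower, Psma4, Psmb2, Psmd6 and Psme1 (7.72% of genes), of which Psma4 and Psme1 were called with total scaling (5.2% of genes). Among stromal classes, fibroblast-like barcodes had 3 of 40 lower, Psmd7, Psmd12 and Psme1, and Psme3 higher (9.9% of genes lower, 10.2% higher), of which Psme3 was not called with total scaling, and here cluster 9 held the largest share of untreated barcodes (51.7%) and cluster 15 of DSS-treated ones (48.5%). Endothelial-like barcodes had 0 of 39 lower (1.87% of genes), 5 at an unadjusted p under 0.05, and Psme4 higher (2.53% of genes). NK or ILC-like and smooth muscle-like barcodes had 0 members called of 37 and 38 by edgeR (1.13% and 1.64% of genes lower), with 7 and 4 at an unadjusted p under 0.05. The shares of genes called higher in these classes are not given here. Summed member levels were apart in dendritic-like barcodes, at 5212 to 5849 CPM untreated and 4449 to 5124 CPM after DSS. They overlapped in macrophage-like (3281 to 3868 and 3220 to 3357 CPM), fibroblast-like, endothelial-like, NK or ILC-like and smooth muscle-like barcodes. The smooth muscle-like mean was 4706 ± 397 CPM untreated and 4772 ± 363 CPM after DSS (SD, n = 4).

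Member by member, Psme1 was lower in 9 of 13 classes, and Psmc2 and Psmd12 in 8 each. Psmc5, Psmd7, Psma4 and Psmb2 were lower in 7. The classes share their libraries and are no independent repeats. Psmb6 was lower in 6 classes, Psmb5 in 5 and Psmb7 in 0, with Psmb7 log2 changes from -0.60 to 0.41. Psme3 and Psme4 had fold changes above 0 in all 13 classes and were called higher in 3 and 1, while Psme2b was called in Th1-like and Th17-like barcodes, at 0.75 and 0.78.

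Single libraries mattered within classes as well. Without untreated wildtype replicate 2 the member calls in either direction were 6 in Th1-like, 8 in naive-like, 1 in Th17-like, 1 in Treg-like, 1 in cycling-like, 6 in B-like, 5 in macrophage-like, 2 in dendritic-like and 0 in plasma-like, fibroblast-like and endothelial-like barcodes. In that order of classes 5.09%, 6.49%, 1.71%, 5.30%, 5.13%, 4.97%, 8.37%, 4.54%, 1.16%, 6.41% and 1.14% of all genes were called. Without DSS-treated wildtype replicate 2 the member calls were 6, 6, 4, 3, 1, 6, 6, 2, 0, 0 and 0 in the same order, and 4.99%, 7.34%, 4.73%, 8.49%, 6.40%, 4.26%, 10.5%, 8.08%, 1.01%, 6.55% and 1.43% of all genes. Th17-like barcodes had 3 without either untreated mutant library, 6 without DSS-treated mutant replicate 2 and 9 without untreated wildtype replicate 1, and Treg-like barcodes had 3 and 4 without untreated mutant replicates 1 and 2, 8 without DSS-treated mutant replicate 2 and 9 without untreated wildtype replicate 1. In Th1-like barcodes the count was 9 without either untreated mutant library and 7 without DSS-treated mutant replicate 2, and in plasma-like ones 0 without untreated mutant replicate 2, 2 without its replicate 1, 4 without untreated wildtype replicate 1, and 8 and 4 when replicates 1 and 2 of the DSS-treated mutants were omitted in turn. Naive-like barcodes gave 9 calls without DSS-treated mutant replicate 2 and 12 without any 1 of the remaining untreated libraries, macrophage-like ones 8 without DSS-treated mutant replicate 2, and cycling-like ones 1 to 4 over the 8 omissions. Dendritic-like barcodes gave 10 calls without DSS-treated mutant replicate 1 and 2 without either untreated mutant library, and fibroblast-like ones 6 without DSS-treated mutant replicate 1 and 0 without any other library. Endothelial-like barcodes gave 1 call without DSS-treated mutant replicate 1 and 0 without any other library. Over the 8 omissions the share of all genes called ran from 4.99% to 15.6% in Th1-like, 6.49% to 15.5% in naive-like, 1.71% to 12.2% in Th17-like, 5.30% to 20.7% in Treg-like and 5.13% to 17.1% in cycling-like barcodes. It ran from 1.01% to 5.95% in plasma-like, 4.26% to 14.5% in B-like, 8.37% to 24.3% in macrophage-like, 4.54% to 16.7% in dendritic-like, 6.16% to 27.2% in fibroblast-like and 1.14% to 4.80% in endothelial-like ones. Mutant against wildtype gave 0 member calls by edgeR in each of the 13 classes, untreated and after DSS, with 0 to 2 members at an unadjusted p under 0.05. The shares of all genes called in these class fits are not given here, so the counts are not set against other genes.

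**Figure D5:**
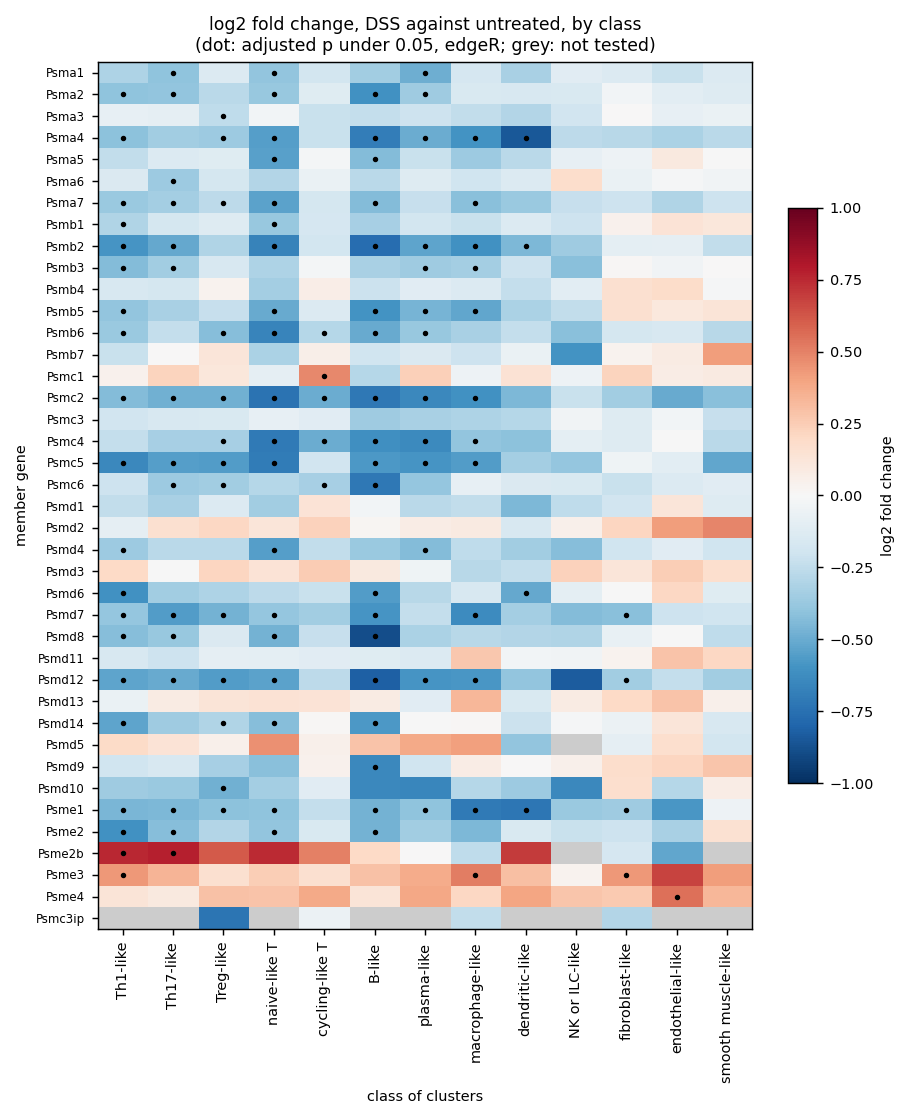
Log2 fold change of each member, DSS-treated against untreated with both genotypes averaged, in 13 classes of clusters; blue is lower and red higher after DSS, a dot marks an adjusted p under 0.05 in edgeR and grey a gene not tested. Rows such as Psmc2, Psmd12 and Psme1 carry dots in 8, 8 and 9 classes, and Psme3 and Psme4 are red in all 13.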

How the data were processed

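RNA of the 8 libraries was counted by the authors as UMI counts per gene and barcode. The submitters' processing notes list mm10, Cell Ranger 3.1.0 and Seurat 4.0.1 without their roles. The deposited tables hold raw whole-number counts, and the authors' cell list was used only as an alternative. Members, gene lists and classes were chosen with earlier results of these data known. Members were named by role, with library values for Psmb5, Psmb6, Psmb7, Psme1, Psme2 and up to 10 called members a comparison, or the 3 lowest p where none was called.

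Barcodes with at least 400 genes and under 20% mitochondrial UMIs were clustered (scanpy 1.11.5, 2000 variable genes less Psm, immune receptor, heat-shock and other listed genes, 30 components, 15 neighbours, Leiden resolution 1). T clusters had a mean T cell gene CPM of at least 50% of the highest. No doublet caller was run. UMIs were summed per library and class and tested with edgeR 4.0.16 (quasi-likelihood, TMM, filterByExpr, all 8 libraries, Benjamini-Hochberg over all genes) in R 4.3.3, after tests on simulated data. DESeq2 1.42.0, total-UMI scaling, no filter, other T definitions, only the libraries compared and leaving out each library were alternatives. Cells were not used as replicates. The labels do not say that libraries came from separate animals beyond their titles, so p-values measure the spread between libraries. Fewer cells of a type and less RNA per cell cannot be told apart in sums over mixed classes. Protein sequences were not used here.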

Additional observations from a re-analysis of the deposited data

Results flagged for a closer look

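For 4 members a direct test found that the DSS response differed between T and non-T barcodes of the same libraries. The test was edgeR with the library as a block, adjusted over all genes. It called 6.12% of 15398 genes, and whether members were called more often than other genes was not tested. The difference, T minus non-T on the log2 scale, was 1.09 for Psme2b (adjusted p = 0.00338), -0.34 for Psmd14 (adjusted p = 0.0244), -0.33 for Psmd6 (adjusted p = 0.0335) and -0.29 for Psmd11 (adjusted p = 0.0428). The 4 were not equally stable: of 10 alternatives Psme2b passed in 9, Psmd14 in 3, Psmd6 in 2 and Psmd11 in 0, and on the authors' cell list 0 of the 4 passed. Psme2b is a near-copy of Psme2.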

How the results depend on the processing

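No paired analysis was possible because no label names pairs of libraries, and no title number recurs between groups. Title numbers that lie close together join a wildtype and a mutant library of the same treatment, but they were not taken as pairs. The library was a block in the comparison of T with non-T barcodes. The direction of the member median in T barcodes after DSS was below 0 under every alternative run, while counts of calls moved. With both genotypes averaged, T barcodes gave 9 calls on the authors' cell list, 5 with T barcodes taken by UMIs of T cell genes, 5 in the cycling-like cluster alone (4 lower, 1 higher), 22 without that cluster (20 lower, 2 higher) and 0 to 23 leaving out single libraries, against 17. In mutant T barcodes the count was 6 (DESeq2), 8 (no filter), 1 (only the 4 libraries compared), 0 (T cell gene UMIs) and 0 to 5 leaving out libraries, against 2, and in wildtype ones 1 (DESeq2) and 3 (no filter), against 0. Over the omissions 0% to 7.97% of all genes were called in mutant T barcodes. Non-T barcodes gave 1 call on the authors' cell list and 0 to 4 leaving out libraries, against 5, and in mutants 1 (DESeq2) and 1 (T cell gene UMIs), against 0. Over the omissions 2.95% to 14.6% of all genes were called in non-T barcodes with both genotypes averaged. Where no share of all genes is printed for a fit, its member count cannot be judged against other genes. The difference between T and non-T responses gave 1 (no filter), 0 (authors' cell list) and 1 to 4 leaving out libraries, against 4. The members lower in T than non-T barcodes in 8 libraries numbered 5 by T cell gene UMIs and 4 on the authors' cell list, against 8, with no share of all genes computed for either alternative.

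With total scaling, added after seeing the data like all alternatives within classes, B-like barcodes gave 12 calls, dendritic-like 2, cycling-like 3, naive-like 9 and Th17-like 9. Leaving out libraries gave 6 to 21 in B-like, 2 to 10 in dendritic-like, 0 to 1 in endothelial-like, 0 to 6 in fibroblast-like, 5 to 15 in macrophage-like, 0 to 1 in NK or ILC-like, 0 to 10 in plasma-like, 6 to 21 in Th1-like, 1 to 17 in Th17-like, 1 to 15 in Treg-like, 1 to 4 in cycling-like and 6 to 18 in naive-like barcodes.

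With both genotypes averaged, 3 of 40 members in T and 11 of 41 in non-T barcodes changed direction in at least 1 alternative, 0 of them called in either. Of the standard cutting subunits and PA28 genes these were Psmb5 and Psmb7. Psmb5 in non-T barcodes was at -0.0101 (no filter), -0.15 (T cell gene UMIs), -0.0176 (total scaling) and -0.0661 to 0.0836 leaving out libraries, and Psmb7 there at -0.0182 (authors' cell list). Psmb7 in T barcodes was at 0.0183 (no filter), 0.0478 (authors' cell list), 0.0493 (T cell gene UMIs), 0.0855 (total scaling) and -0.0622 to 0.0555 leaving out libraries. The cause was not tested. Leaving out clusters led by heat-shock genes was not run, since no cluster met that rule.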

Other observations

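Classes too small to test, and T clusters without a name, gave member sums as follows. Neutrophil-like barcodes held 1354 to 3262 CPM and squamous-like barcodes 4438 to 6155 CPM, with 1 to 179 barcodes a library. Glia-like barcodes held 3470.2 to 4760.3 CPM. In each of these classes the sums of treated and untreated libraries overlapped. The squamous-like mean was 4654 ± 254 CPM untreated and 5411 ± 645 CPM after DSS (SD, n = 4). The unnamed T clusters 2 and 4 went from 4020.0 ± 131 CPM to 3266 ± 203.4 CPM and from 3724 ± 238 CPM to 3072 ± 187 CPM (SD, n = 4 libraries of both genotypes), and libraries of the 2 treatments did not overlap in either cluster.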
